A study of Mus musculus with 24 samples.

Results

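The transcripts described here come from 10 genes of the endoplasmic reticulum (ER) stress response: the chaperones Hspa5, Hsp90b1 and Calr, the disulfide isomerases Pdia4 and Pdia6, the co-chaperones Dnajb9 and Sdf2l1, the ER-associated degradation gene Herpud1, the transcription factor gene Xbp1 and its target Creld2. They were taken by symbol from the 55487 genes of the deposited table, and all 10 were among the 14535 genes with enough counts to test. Messenger RNA was sequenced from bone-marrow-derived dendritic cells (BMDCs), which are grown from mouse marrow with the growth factor GM-CSF. The design compared how control and knockout cells differentiate from day 7 to day 10 of culture. Control mice (WT) carried the genotype ARPC4 Flox/Flox CD11c-Cre -/- and knockout mice (KO) ARPC4 Flox/Flox CD11c-Cre +/-, so every culture had floxed alleles of Arpc4, whose product belongs to the Arp2/3 complex that starts branched actin filaments. Cre is driven by the CD11c promoter and acts only in cells that have switched it on. Marrow came from 8- to 10-week-old mice of both sexes, cells were moved to fresh medium on day 4 and day 7, and only cells in suspension were sampled. Each genotype had 3 mice on each of 4 days, which made 8 groups and 24 libraries. The labels carry the same 3 mouse numbers per genotype on every day, 6 mice in all.

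Proteins destined for secretion or the cell surface fold in the ER with the help of chaperones such as BiP, the product of Hspa5. When unfolded protein accumulates, the sensors IRE1, ATF6 and PERK start the unfolded protein response: IRE1 splices Xbp1 mRNA into the form that encodes an active factor, and XBP1 and ATF6 raise chaperone and degradation genes. PERK acts through the translation factor eIF2 and ATF4, and ATF4 is also raised by the kinase GCN2 when amino acids run short, in which case amino acid synthesis and transport genes respond without the chaperones. Dendritic cells are known for IRE1 and XBP1 activity. Gene-level counts do not separate spliced from unspliced Xbp1, so no value below measures its splicing.

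Promoters of 6 of the 10 genes held an exact match to a sequence that the ER stress factors are known to read, and the matches are shown to give the letters and places of these elements. RefSeq promoters (GRCm38.p6), from 250 bases before to 50 after the transcription start, were matched for 10 of 10 genes and searched on both strands for 4 motifs. The ER stress response element (ERSE), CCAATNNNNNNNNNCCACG, was present in 5 of the 10 promoters and in 0.137% of the 27025 genes with a promoter. Its matches follow, 5′ to 3′ on the strand that matches, with the fixed letters in capitals.
Hspa5, chr2:34772025-34772043: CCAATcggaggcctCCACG
Hsp90b1, chr10:86705638-86705656: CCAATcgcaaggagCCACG
Hsp90b1, chr10:86705533-86705551: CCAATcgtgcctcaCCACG
Calr, chr8:84847075-84847093: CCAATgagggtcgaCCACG
Pdia6, chr12:17266491-17266509: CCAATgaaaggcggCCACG
Creld2, chr15:88819520-88819538: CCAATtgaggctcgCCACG
The Hspa5 match lay within an exon of Hspa5 in GENCODE M21, whose annotated start is upstream of the RefSeq start, and the others lay in no gene. Herpud1 held the compact form ERSE-II, ATTGGNCCACG, at chr8:94386377-94386387, a sequence found in 0.0444% of genes and placed in an intron of the antisense gene Gm15890.
Herpud1, ERSE-II: ATTGGgCCACG
The XBP1 site TGACGTGG was in none of the 10 promoters and in 0.714% of genes. The amino acid response element TGATGNAA, read by ATF4 and its partners, was in 1 of the 10, again Herpud1, and in 4.51% of genes. Pdia4, Dnajb9, Sdf2l1 and Xbp1 held none of the 4 motifs. Among 24 of 32 amino acid genes with a promoter, 9 held TGATGNAA and 0 held the ERSE. Of the other ER genes described below, the ERSE was in 3 of 24 folding, 2 of 14 degradation and 0 of 25 translocation and transport promoters, and TGATGNAA in 2, 1 and 1 of these. The motifs were chosen as known elements of these stress responses, so the shares beside all genes are no test of enrichment. An exact match is a description of letters and does not show binding, and its lack says nothing about any factor.

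The whole 300-base promoters of Hspa5, Herpud1 and Asns show the different arrangements. In Hspa5 the ERSE (capitals) stood 46 bases before the start. In Herpud1 the first capitals are the amino acid response element, written here as its reverse complement because it matched the other strand. The second capitals are the ERSE-II, 41 bases before the start. Asns, the asparagine synthetase gene, had the amino acid response element 15 bases before its RefSeq start, within an exon of Asns in GENCODE M21.
Hspa5, chr2:34771840-34772139, plus strand: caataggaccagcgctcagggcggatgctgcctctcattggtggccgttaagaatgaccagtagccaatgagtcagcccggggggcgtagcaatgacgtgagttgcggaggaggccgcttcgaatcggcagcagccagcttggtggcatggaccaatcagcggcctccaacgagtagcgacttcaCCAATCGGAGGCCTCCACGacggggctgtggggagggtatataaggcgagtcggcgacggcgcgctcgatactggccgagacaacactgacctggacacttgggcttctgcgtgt
Herpud1, chr8:94386179-94386478, plus strand: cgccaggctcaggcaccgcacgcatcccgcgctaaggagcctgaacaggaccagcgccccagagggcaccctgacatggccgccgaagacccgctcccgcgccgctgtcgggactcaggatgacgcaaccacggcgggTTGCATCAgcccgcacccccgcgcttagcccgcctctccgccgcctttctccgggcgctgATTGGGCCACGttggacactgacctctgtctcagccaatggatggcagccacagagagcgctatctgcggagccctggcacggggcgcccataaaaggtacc
Asns, chr6:7693160-7693459, minus strand: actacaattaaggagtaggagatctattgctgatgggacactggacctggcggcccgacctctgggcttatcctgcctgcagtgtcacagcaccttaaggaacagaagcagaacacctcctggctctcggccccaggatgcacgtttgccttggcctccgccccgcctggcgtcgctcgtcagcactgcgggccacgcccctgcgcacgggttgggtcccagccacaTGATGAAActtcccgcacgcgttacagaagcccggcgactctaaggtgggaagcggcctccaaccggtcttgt

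Libraries held 19952047 to 31049798 counts. The label check gave Arpc4 at 192 ± 5.6 CPM (the count scaled to library size with TMM factors, ± SD, n = 3) in WT and 169 ± 14 in KO on day 7. No day's Arpc4 difference passed an adjusted p of 0.05 (edgeR quasi-likelihood test, log2 fold changes from -0.28 to -0.18), although KO and WT values did not overlap on any day. Which exons the floxed allele loses is not given in the sources used here. Of the dendritic markers, Itgax (CD11c) stood at 474 to 1120 TPM (a share of transcripts that also accounts for gene length) and Cd74 at 1220 to 8820, while Flt3 reached at most 3.76 and Zbtb46 10.2. Macrophage markers summed to 2760 to 9060 TPM and neutrophil markers to 5680 to 24000, led by S100a8 and S100a9. B and plasma cell markers, from cells known for high levels of these chaperones, summed to 55.1 to 191 TPM, mostly from Sdc1 and Ighm, while Mzb1, Tnfrsf17 and Pax5 stayed at or under 0.44 TPM in all 24 libraries. Remaining lists summed to 15 to 34.2 TPM (plasmacytoid), 117 to 556 (mast cell and basophil), 2.44 to 16.7 (T and NK) and 0.14 to 3.82 (erythroid). In bulk RNA, fewer cells of a type and less RNA per cell cannot be told apart.

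A library in each group stood apart by Y-linked RNA. In WT the mouse numbered 63 had Ddx3y at 56.5 to 83.9 CPM on all 4 days, while its partners had at most 0.136 CPM and Xist at 496 to 872. In KO the library with high Ddx3y, at 59.2 to 67.7 CPM, carried the number 64 on days 7 and 9, 68 on day 8 and 67 on day 10. KO mouse numbers therefore go against their labels as marks of 1 animal over the days. The reported fit does not use the numbers, and member counts that move by over 1.5 times without these libraries are given beside the result.

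At the length-scaled level, Calr was the most abundant of the 10 transcripts in both genotypes on days 7 and 8, the days ranked here. In WT on day 7 it stood at 880 ± 51 TPM, followed by Hsp90b1 at 465 ± 25 and Hspa5 at 462 ± 26, whose ranges overlapped. Sdf2l1, Pdia6 and Xbp1 came next at 164 to 175 TPM on average, each overlapping its neighbour. Pdia4 was seventh at 143 ± 7.7 TPM, and its range lay below that of Xbp1. Creld2 at 58.8 ± 3.6 and Herpud1 at 55 ± 3 overlapped, and Dnajb9 was lowest at 41.1 ± 1.5. By day 8 Pdia4 ranked 3rd at 793 ± 30 TPM, level with Hspa5 (826 ± 29) and Hsp90b1 (770 ± 10) within their ranges. The order in KO on day 8 also ran Calr, Hspa5, Pdia4, Hsp90b1, and ended with Creld2, Herpud1 and Dnajb9.

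**Figure D1:**
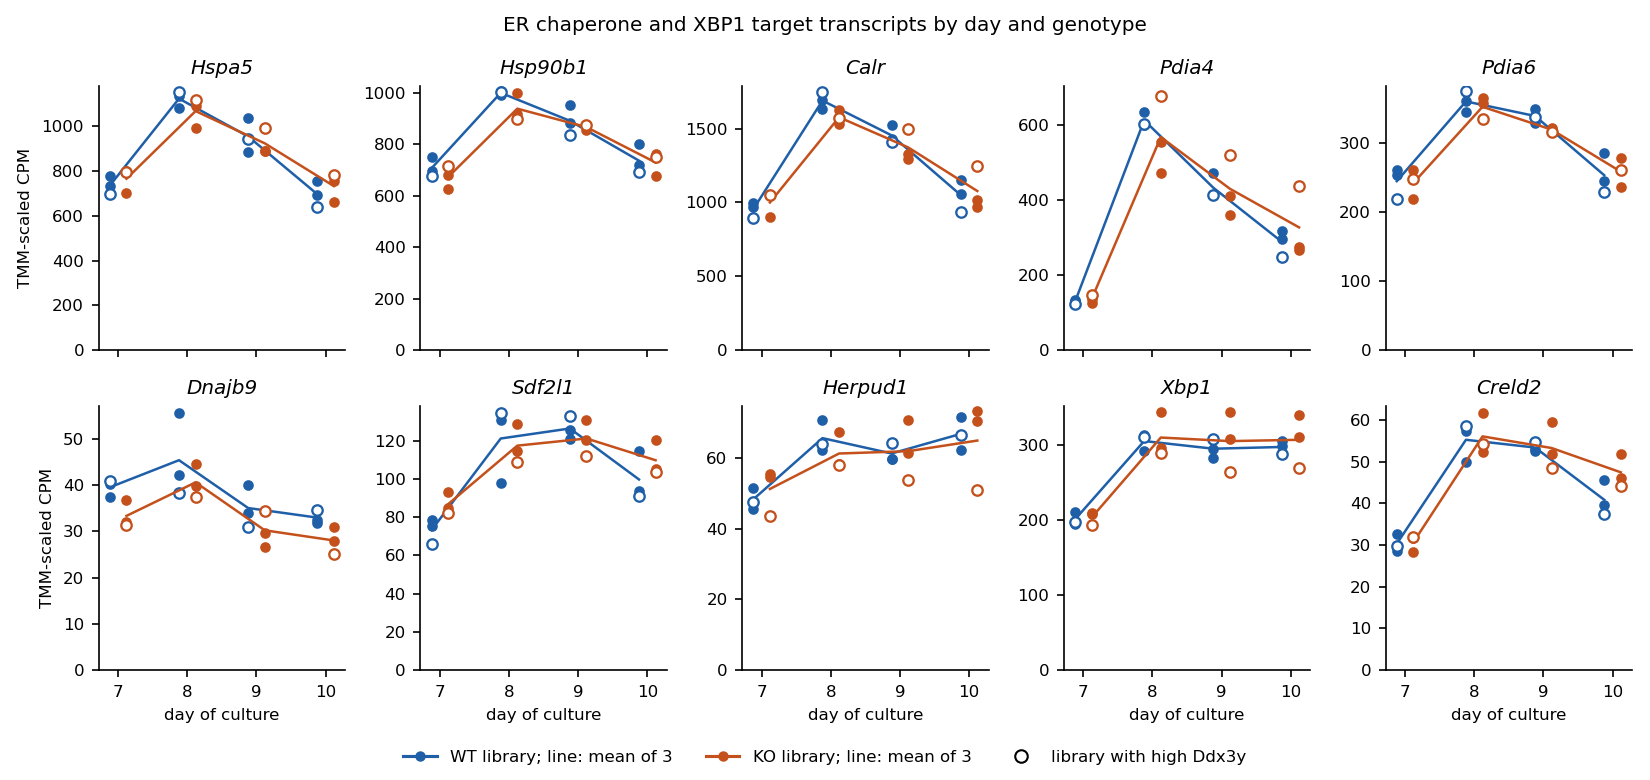
TMM-scaled CPM of the 10 transcripts against day of culture, with 1 point per library (blue WT, orange KO), lines through the means of 3 and open points for libraries with high Ddx3y. WT and KO lines run close together, Pdia4 goes from 129 to 613 CPM in WT between days 7 and 8, and Xbp1 stays near 300 CPM after day 8.

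KO and WT cells were compared on each day to ask whether the libraries labelled KO differ in the chaperone program. None of the 10 transcripts passed the threshold on any day. Log2 fold changes (KO over WT) ran from -0.25 to 0.24 over the 40 values, 18 above and 22 below 0, and no 95% interval reached beyond -0.51 or 0.53. On day 7, 0 of 10 were called beside 1.45% of all genes, or 211 genes, a number that ranged from 11 to 351 with 1 mouse number left out and up to 833 over the alternatives. On day 8 and on day 9, 0 of 10 were called against 0.00688% of all genes, and on day 10, 0 of 10 against 0.0138%. At an unadjusted p under 0.05 there was 1 transcript on day 7, 1 on day 10 and none on the days between, beside 15.7%, 5.91%, 8.15% and 7.3% of all genes on days 7 to 10. DESeq2 also called 0 of the 10 on each day. The median of the 10 was 0.04 on the first and the last day, -0.08 on day 8 and -0.04 on day 9, where that of all genes was between -0.01 and 0. Leaving out the high-Ddx3y libraries of KO or of both genotypes also gave 0 calls on every day, as did each of the other alternatives.

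Hspa5, the gene for the main ER Hsp70, shows how close the genotypes were. WT libraries on day 7 read 696.2, 731.5 and 779.7 CPM and KO libraries 797.9, 700.1 and 800.3, a log2 fold change of 0.06 (SE 0.089, adjusted p = 0.8, edgeR). WT on day 8 read 1155, 1135 and 1083 CPM, and KO 1092, 994.6 and 1119, a log2 fold change of -0.07 (SE 0.089, adjusted p = 0.96, edgeR). In both cases the ranges overlapped. The 95% interval on day 7, -0.13 to 0.25, leaves room for a difference of up to that size in either direction.

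Xbp1 means were close on each day, with log2 fold changes from 0.02 to 0.05. On day 10 the WT libraries read 288.2, 297.9 and 305.4 CPM, and the KO libraries 339.5, 269.8 and 310.8. That gave 297 ± 8.7 CPM in WT and 307 ± 35 in KO (SD, n = 3), with a log2 fold change of 0.05 (SE 0.092, adjusted p = 0.96, edgeR). WT values lay inside the KO range.

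Sdf2l1 and Creld2 had the only unadjusted p-values under 0.05. Sdf2l1 encodes a partner of BiP in the ER lumen, and on day 7 it read 66, 75.1 and 78.6 CPM in WT and 82, 85 and 93.4 in KO. All KO values were above all WT values, with a log2 fold change of 0.24 (SE 0.11, unadjusted p = 0.043, adjusted p = 0.3, edgeR). Creld2, an ER protein with isomerase-like motifs, read 37.4, 39.6 and 45.5 CPM in WT on day 10 and 51.9, 44.2 and 46.2 in KO. The groups overlapped, and the log2 fold change of 0.22 (SE 0.093) had an adjusted p of 0.61 (edgeR).

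Dnajb9, the gene for the co-chaperone ERdj4, which helps return IRE1 to its inactive state, was lower in KO on average on all 4 days without passing the threshold, and on day 8 the direction turned, to 0.018, without the WT number 65. Its day 7 values were 40.8, 37.5 and 40.2 CPM in WT and 31.4, 31.9 and 36.7 in KO. Day 10 gave 34.7, 31.7 and 32.5 CPM in WT and 31, 25.1 and 27.9 in KO. KO values lay below all WT values on both of these days and overlapped with them on days 8 and 9. Log2 fold changes were -0.25 (SE 0.13), -0.16 (SE 0.12), -0.21 (SE 0.13) and -0.23 (SE 0.13) on days 7 to 10, with adjusted p from 0.35 on day 7 to 0.93 on day 8 (edgeR).

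**Figure D2:**
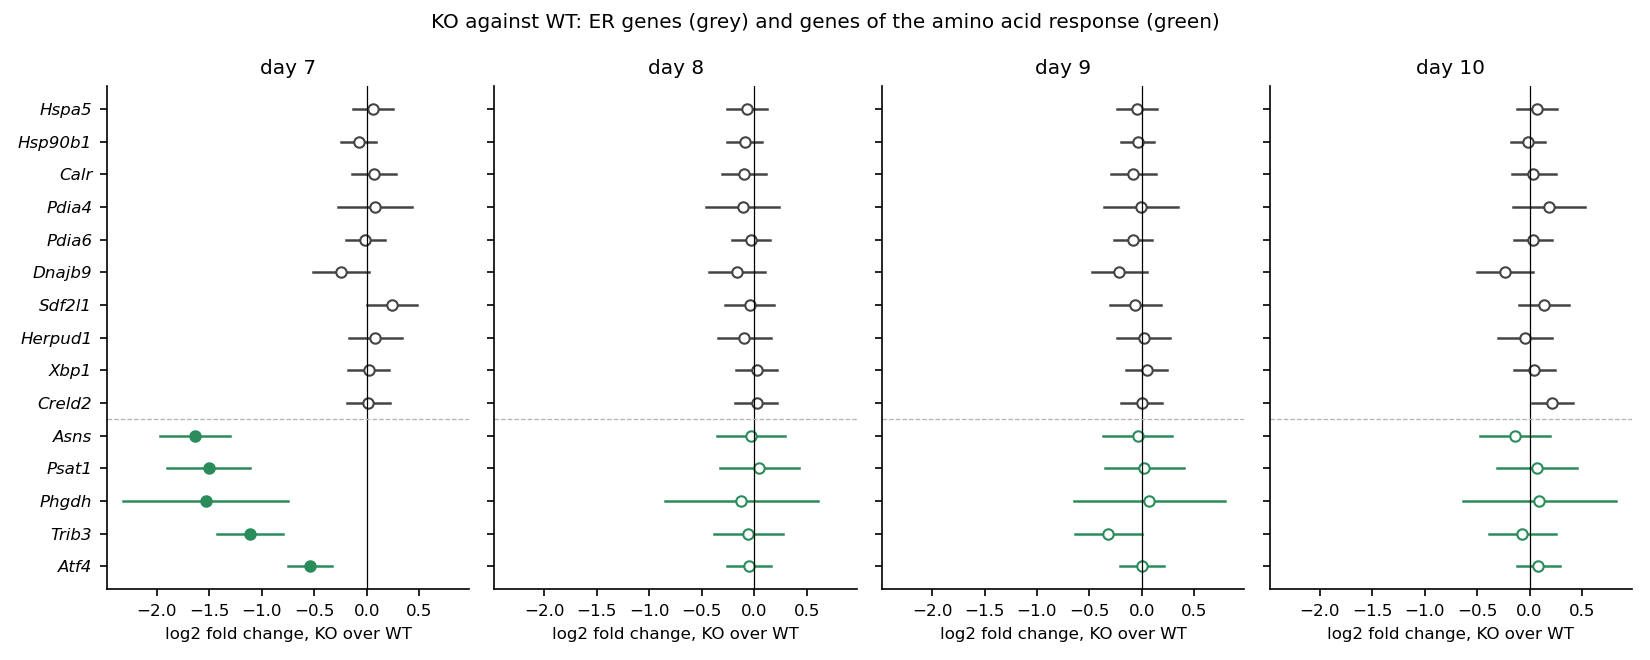
Log2 fold change of KO over WT on each day, with 95% intervals, for the 10 ER transcripts (grey) and 5 genes chosen for called changes on day 7 (green: Asns, Psat1 and Phgdh of amino acid synthesis, and Atf4 and Trib3, which respond to both stresses); filled points passed the threshold. All 40 grey points are open and lie between -0.25 and 0.24, while the 5 green points on day 7 lie between -1.64 and -0.54, and the median of all 31 amino acid genes was -0.41.

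Genes that respond to amino acid shortage were lower in KO on day 7. Of 31 tested genes for amino acid synthesis, transport and tRNA charging, 17 were called lower in KO and 0 higher, where 0.619% of all genes were called lower. The median log2 fold change of the 31 was -0.41, beside -0.01 for all genes. Asns, the asparagine synthetase gene, read 33.2, 38.9 and 47.4 CPM in WT and 11.2, 14.5 and 12.7 in KO. The groups were far apart, with a log2 fold change of -1.64 (SE 0.16, adjusted p = 1.1e-05, edgeR). Psat1 and Phgdh, both of serine synthesis, had log2 fold changes of -1.50 (SE 0.19, adjusted p = 0.00024) and -1.53 (SE 0.37, adjusted p = 0.043). On days 8, 9 and 10 none of the 31 was called by edgeR or DESeq2, beside 0.00688%, 0.00688% and 0.0138% of all genes by edgeR. Before adjustment, 2, 2 and 1 of the 31 had a p under 0.05, beside 5.91%, 8.15% and 7.3% of all genes. The count of 17 on day 7 moved between 5 and 19 over the alternatives, with 8 on TPM, 11 on library totals, 10, 7 and 5 without the WT mouse numbered 63, 65 or 66, 10 without the KO number 68, and 16 without all libraries with high Ddx3y. Among the cell type markers, 1 macrophage marker was called in KO against WT on day 7 and none of the other lists. Median log2 fold changes were 0.89 for mast cell and basophil markers (7 of 7 tested above 0), 0.86 for dividing-cell markers (9 of 10), 0.55 for neutrophil (10 of 11), 0.39 for dendritic (8 of 10) and 0.21 for macrophage markers (9 of 10). Low-level lists stood at 1.55 for 4 T and NK markers, 1.29 for 1 erythroid marker, -0.21 for 8 B and plasma cell markers and -0.08 for 5 plasmacytoid markers. Summed mast cell and basophil markers were 136 to 177 TPM in WT and 160 to 535 in KO, dividing-cell markers 247 to 248 and 284 to 390, neutrophil markers 5680 to 11300 and 7950 to 22700, and dendritic markers 2300 to 3060 and 2880 to 3990. The part of these cell types in the day 7 differences was not tested.

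Some regulators shared by both stresses were lower too. Of 16 tested genes of the ATF4 and CHOP arm, 2 were called lower in KO on day 7, beside 0.619% of all genes: Atf4 itself at 273 ± 28 CPM in WT and 188 ± 1.7 in KO (log2 -0.54, SE 0.098, adjusted p = 0.0096, edgeR), and Trib3, a feedback inhibitor, at 19.8 ± 3.5 and 9.16 ± 0.83 (log2 -1.11, SE 0.15, adjusted p = 0.00046). That count was 4 by DESeq2, which called 523 of all 14535 genes in either direction, 4 without the high-Ddx3y libraries of KO or of both genotypes, and 1 without the WT number 65 or 66. Ddit3, which encodes CHOP, read 25, 31.6 and 33.2 CPM in WT and 20.7, 20.4 and 22.3 in KO, a log2 fold change of -0.50 (SE 0.18, adjusted p = 0.18). Its groups did not overlap, but it was not called.

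Other ER genes were called at about the share of all genes in the comparison of genotypes. Lists of 28 folding genes, 18 degradation genes, 33 translocation and transport genes and 8 unfolded protein response sensors held 87 tested genes, and 0 of these were called on any day, beside the 1.45% of all genes called on day 7 and at most 0.0138% later. On day 7, 19 of the 87 had an unadjusted p under 0.05, beside 15.7% of all genes, and DESeq2 called 3 of the 87 and 523 of all 14535. The list medians on day 7 were -0.02, -0.09, -0.10 and -0.09, beside -0.01 for all genes. Values were below 0 for 19 of 28, 14 of 18, 28 of 33 and 5 of 8 genes. By list, 2, 5, 9 and 3 genes had an unadjusted p under 0.05. Among the sensors, Ern1 (IRE1) had a log2 fold change of -0.26 (SE 0.11, adjusted p = 0.25), Atf6 -0.17 (SE 0.068, adjusted p = 0.22) and Eif2ak3 (PERK) 0.03 (SE 0.062, adjusted p = 0.87) on day 7 (edgeR).

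Between day 7 and day 8, the first day after cells were moved to fresh medium, the ER transcripts rose in both genotypes. In WT 9 of 10 were called, all of them higher, where 43.4% of all genes were called and 21.5% were called higher. In KO 8 of 10 were called, all higher, beside 42% called and 21.1% called higher. The median log2 fold change of the 10 was 0.61 in WT and 0.51 in KO, and that of all genes was 0 in each. DESeq2 gave the same counts, and the alternatives ranged from 9 to 10 in WT and from 8 to 10 in KO.

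Pdia4 had the largest rise of the 10. This disulfide isomerase of the chaperone complex around BiP read 122, 133.1 and 132 CPM on day 7 in WT and 602.6, 634.9 and 599.9 on day 8. Nothing overlapped, and the log2 fold change was 2.25 (SE 0.17, adjusted p = 4.6e-09, edgeR). KO libraries went from 146.6, 126.1 and 135.4 CPM to 554.9, 471.8 and 676.2, a log2 fold change of 2.06 (SE 0.17, adjusted p = 1.6e-08). The day 8 values of KO spread around those of WT.

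The main chaperones rose by less. Calr, the lectin chaperone that also loads calcium, went from 896.2, 972.2 and 996.9 CPM to 1747, 1633 and 1692 in WT, a log2 fold change of 0.82 (SE 0.099, adjusted p = 1.6e-06, edgeR). Hspa5 rose 1.53-fold and Hsp90b1, the ER Hsp90, 1.41-fold in WT, with 1.39-fold each in KO. Pdia6 rose 1.47-fold in WT and 1.46-fold in KO. Each of these had no overlap between days in either genotype. How often this held over all genes is not given.

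Among co-chaperones and XBP1-linked genes the sizes differed. Creld2 went from 29.7, 28.6 and 32.6 CPM to 58.5, 50 and 57.2 in WT, a log2 fold change of 0.87 (SE 0.095, adjusted p = 4.9e-07), and by 0.87 in KO. Xbp1 rose 1.52-fold in both, from 196.8, 194.3 and 211.1 CPM to 310, 291.6 and 313.6 in WT. Sdf2l1 rose 1.65-fold in WT and 1.35-fold in KO. Herpud1, whose product assembles the degradation complex, rose 1.36-fold in WT (adjusted p = 0.0061), and in KO its log2 fold change of 0.26 (SE 0.12) missed the threshold with an adjusted p of 0.095. Dnajb9 was called in neither, with log2 fold changes of 0.20 (SE 0.13, adjusted p = 0.21) in WT and 0.28 (SE 0.13, adjusted p = 0.076) in KO.

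Whether the genotypes differed in this rise was tested as an interaction. None of the 10 was called, where 0.0275% of all genes were, and none had an unadjusted p under 0.05 or was called by DESeq2. Values (KO change minus WT change, log2) ran from -0.29 for Sdf2l1 (SE 0.16, adjusted p = 1) to 0.09 for Dnajb9 (SE 0.18, adjusted p = 1). For Pdia4 the 95% interval was -0.68 to 0.31, and for Xbp1 -0.27 to 0.28. The same test from day 7 to day 10 called none of the 10, beside 0.0619% of all genes, again with 0 at an unadjusted p under 0.05 and 0 by DESeq2.

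**Figure D3:**
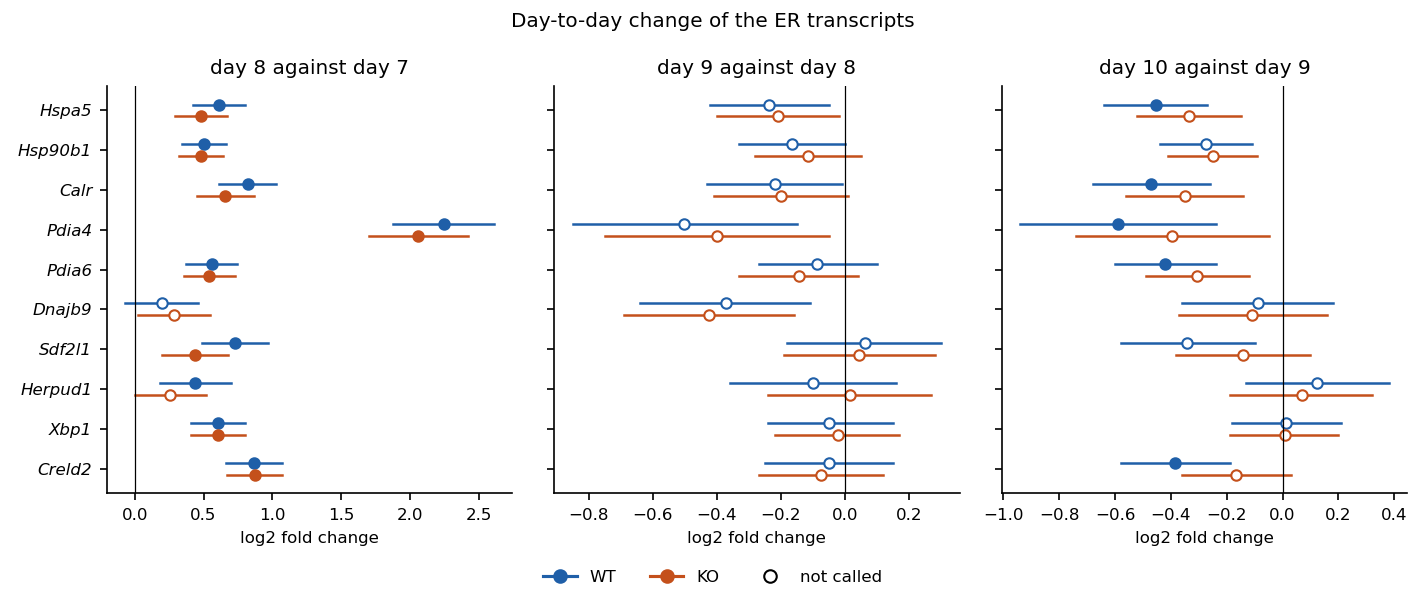
Log2 fold change of each ER transcript between successive days, with 95% intervals, in WT (blue) and KO (orange); filled points passed the threshold. Points for day 8 against day 7 lie to the right of 0 for all 10 genes, and those for day 10 against day 9 lie to the left for all but Herpud1 and Xbp1.

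Fewer of the 10 were called in the later steps. From day 8 to day 9 none of the 10 was called, beside 5.4% of all genes in WT and 2.33% in KO, with 5 and 3 at an unadjusted p under 0.05, beside 21.8% and 18.7% of all genes. DESeq2 called 2 of the 10 in WT and 1 in KO, and 1325 and 898 of all 14535 genes. Without the KO libraries with high Ddx3y the counts of the 10 were 2 in WT and 2 in KO, and without all such libraries 1 and 2. The number of all genes called, 785 in WT and 338 in KO, ranged from 17 to 2180 and from 0 to 1103 over the alternatives. From day 9 to day 10, 5 of 10 were called in WT, all lower (Hspa5, Calr, Pdia4, Pdia6 and Creld2), where 3.6% of all genes were called and 2.42% were called lower. That WT count went to 0 without the mouse numbered 63 or 65, and to 1 without all libraries with high Ddx3y. The number of all genes called in that step, 523, itself ranged from 0 to 1064 with 1 number left out. Log2 fold changes then ranged from -0.586 to -0.397 for Hspa5 and from -0.575 to -0.414 for Calr. KO had 0 of 10 called beside 0.0963% of all genes, with 5 at an unadjusted p under 0.05, beside 12% of all genes, and 4 called by DESeq2, beside 207 of all 14535. The KO count was 3 without the KO number 67 and 1 without the libraries with high Ddx3y, of KO or of both genotypes. The number of all genes called in that KO step, 14, itself ranged from 0 to 2090 with 1 number left out.

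The share of the day 8 mean left on day 10 ranged from 46.8% to 102% in WT and from 57.6% to 106% in KO. Hspa5 in WT was at 1120 ± 37 CPM on day 8, 955 ± 75 on day 9 and 697 ± 58 on day 10, or 62.2% of its day 8 mean. Calr was at 62.1% and Pdia4 at 46.8% in WT, and at 68.4% and 57.6% in KO. Xbp1 was at 97.4% in WT and 99% in KO, and Herpud1 at 102% and 106%. Herpud1 was the only gene of the 10 whose mean CPM was highest on day 10. Its WT libraries read 63.9, 62.2 and 70.9 CPM on day 8 and 66.6, 62.4 and 71.6 on day 10. These 2 groups lay over each other. On TPM the Xbp1 mean was also highest on day 10, at 295 in WT and 325 in KO, beside 292 and 310 on day 8. Day 10 was not tested against day 8, so these percentages are a description.

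Over the whole course from day 7 to day 10, 5 of 10 were called higher in WT and 5 in KO. All genes called made up 37% in WT, with 18.9% called higher, and 36.8% in KO, with 19.7% called higher. The 5 were Pdia4, Sdf2l1, Herpud1, Xbp1 and Creld2 in each genotype. Pdia4 was 2.23-fold higher on day 10 in WT (adjusted p = 2.3e-05, edgeR) and 2.4-fold higher in KO, and Xbp1 1.48-fold and 1.51-fold. Hspa5 was not called, with log2 fold changes of -0.08 (SE 0.089) in WT and -0.06 (SE 0.089) in KO. On log2(TPM + 1) the direction turned and it was called higher by limma, at 0.203 in WT (adjusted p = 0.022) and 0.241 in KO (adjusted p = 0.0069). These counts depended on the scaling: on library totals 8 were called higher in each genotype and on TPM 9, and both scalings also put the median of all genes at 0.21 to 0.30. Without the KO number 64, the KO count was 3.

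Marker sums moved over the same days. Median sums on days 7, 8, 9 and 10 were 2860, 3890, 5840 and 7480 TPM for dendritic markers in WT and 3590, 4800, 6600 and 9310 in KO. Macrophage markers had medians of 6940, 4730, 3380 and 2900 TPM in WT and 8670, 5030, 3820 and 3410 in KO. Apoe made up much of the macrophage sum, at 3280 to 4060 TPM on day 7 and 1220 to 1400 on day 8 in WT. In that step 2 of the 10 macrophage markers were called higher and 3 lower, beside 21.5% and 22% of all genes. Neutrophil markers had 7340, 10300, 14300 and 18000 TPM in WT and 11900, 9570, 16600 and 20300 in KO. Thus dendritic sums were highest and macrophage sums lowest on day 10 in both genotypes. Cd74 made up much of the dendritic sum, at 1220 to 1750 TPM on day 7 and 4220 to 6410 on day 10 in WT. Batf3 in WT was at 14.8 to 18.2 TPM on day 7 and 9.51 to 11.8 on day 10. From day 7 to day 8 in WT, 0 of the 10 dendritic markers were called higher and 1 lower. From day 7 to day 10 in WT these counts were 5 and 1, beside 18.9% and 18.1% of all genes. Dividing-cell markers had medians of 247, 373, 676 and 780 TPM in WT and 294, 391, 755 and 848 in KO. Mast cell and basophil markers had 162, 236, 274 and 181 TPM in WT and 304, 371, 432 and 218 in KO, higher on days 8 and 9 than on days 7 and 10, as most of the ER transcripts were. The part of any of these cell types in the course of the ER transcripts was not tested.

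In the step to day 8, other ER genes were called in both directions. The folding, degradation, translocation and sensor lists were called at 53.6%, 50%, 39.4% and 62.5% in WT and at 50%, 50%, 42.4% and 50% in KO, beside 43.4% and 42% of all genes, and differences between lists were not tested. Of the 28 folding genes, 11 were called higher and 4 lower in WT, and 9 and 5 in KO, with medians of 0.13 and 0.14. Manf, a secreted ER stress protein, rose by 0.77 (SE 0.078, adjusted p = 2e-07) in WT, and Sil1, the nucleotide exchange factor of BiP, fell by 0.92 on the log2 scale, from 33.1 ± 1.7 to 17.5 ± 1 CPM. Degradation genes had 3 higher and 6 lower of 18 in WT and 4 and 5 in KO, with medians of 0.03 and 0.05. Translocation and transport genes had 8 higher and 5 lower of 33 in WT and 12 and 2 in KO, with medians of 0.04 and 0.11. The 8 sensors had 0 higher and 5 lower in WT and 0 and 4 in KO: Ern1 was at 95.7 ± 6.3 CPM on day 7 and 66.5 ± 11 on day 8 in WT (log2 -0.53, SE 0.11, adjusted p = 0.00063), and Atf6 at 118 ± 2.2 and 82.6 ± 9.8 (log2 -0.51, SE 0.068, adjusted p = 5.4e-06). Thus Xbp1 rose while the transcript of the kinase that splices its mRNA fell. In WT the counts were 7 folding genes higher without the number 63 or 65, 4 and 5 translocation and transport genes higher without these numbers, and 3 sensors lower without 63 or 66. Without all libraries with high Ddx3y, 4 translocation and transport genes were higher and 3 sensors lower in WT, and 2 sensors were lower in KO. In KO, 7 translocation and transport genes were higher without the number 67. The scaling moved the folding and the translocation and transport counts more. On TPM 19 folding genes were called higher in WT and 17 in KO, and 21 and 24 translocation and transport genes were higher. Sensors called lower on TPM were 3 in WT, the same as without the numbers or libraries above, and 1 in KO. On library totals 18 and 14 folding genes and, in WT, 18 translocation and transport genes were higher and 3 sensors lower. Without a filter 5 translocation and transport genes were higher in WT. Library totals and TPM also put the median of all genes in this step at 0.15 to 0.22, and 68.7% to 76% of all called genes were then higher.

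Amino acid genes over the same step were called at 48.4% in WT and 51.6% in KO, beside 43.4% and 42% of all genes. In WT 4 of 31 were called higher and 11 lower, with a median of -0.19, and 12 of the 31 had a positive change. On TPM 7 were called lower in WT. In KO 15 were called higher and 1 lower, with a median of 0.44. Asns in WT went from 39.8 ± 7.1 to 14.3 ± 0.97 CPM, and in KO from 12.8 ± 1.7 to 13.9 ± 1.5. The interaction was called for 4 of the 31, the only 4 genes of all 14535 that were called in it, and for 6 of 9 genes called from day 7 to day 10. These counts ranged from 0 to 8 and from 0 to 10 over the alternatives, and both were 0 without the number 65 or 68, at most 2 without 63, 64 or 66, and 1 and 6 without 67. Both comparisons use the day 7 libraries that also enter KO against WT on day 7, so they are not separate evidence of the day 7 difference.

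**Figure D4:**
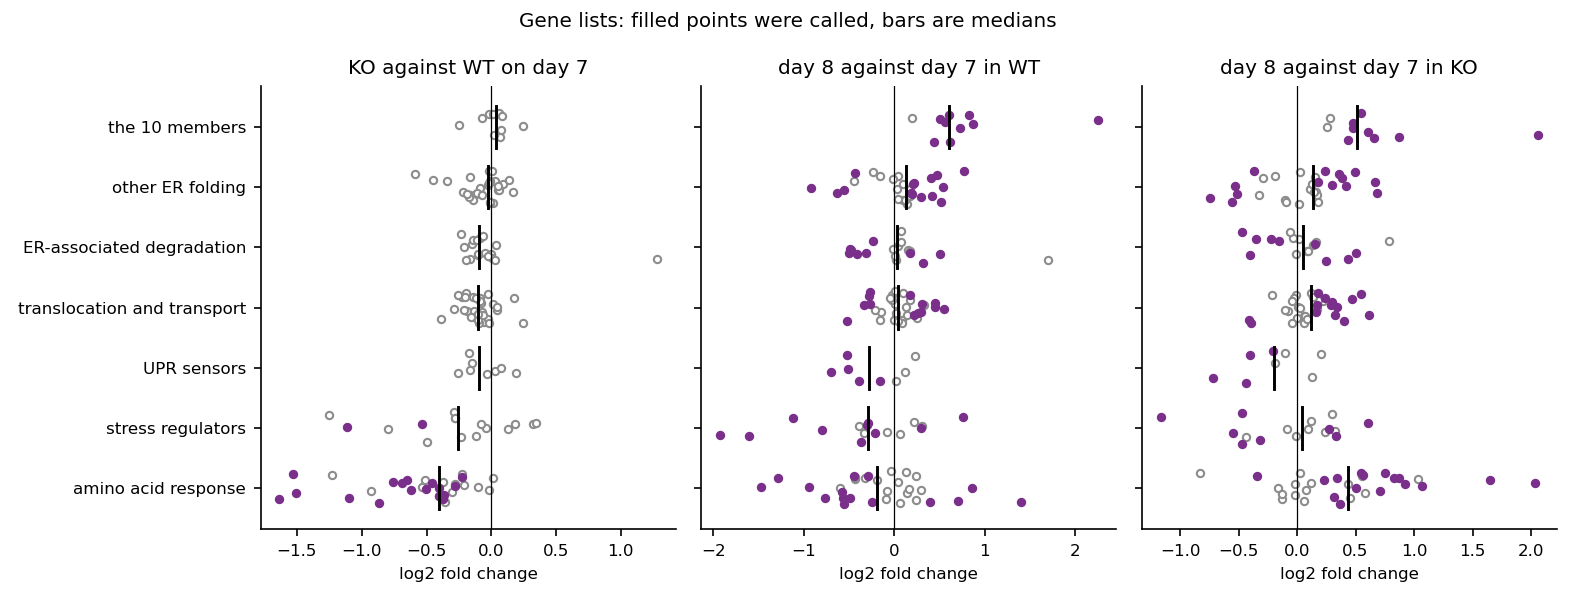
Log2 fold changes of single genes by list for KO against WT on day 7 and for day 8 against day 7 in WT and KO; filled points passed the threshold and bars are medians. Amino acid genes have a median of -0.41 in the comparison of genotypes and the 10 ER transcripts 0.04, while the ER medians are 0.61 and 0.51 in the comparisons of days.

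Across all 24 libraries most of the 10 transcripts varied together. Pairwise Pearson r of log2 CPM had a median of 0.72 over 45 pairs, from -0.14 to 0.96, and 42 were positive. These libraries share days, so the values mostly describe the common time course. Deviations from group means gave a median r of 0.14, from -0.82 to 0.89, with 28 of 45 positive. The pairs with the lowest values were Pdia4 with Herpud1 (-0.82) and Pdia4 with Xbp1 (-0.80). Dnajb9 was the member that followed the others least, with r of 0.02 to Creld2 and -0.14 to Sdf2l1 over the libraries. The 5 genes whose log2 CPM was most like the mean standardised level of the 10 were Manf (r = 0.97), Dnajb11 (0.97), Cct6a (0.97), Cct8 (0.97) and Enoph1 (0.97) over 24 libraries. Manf and Dnajb11 encode ER proteins, and Cct6a and Cct8 encode subunits of the cytosolic chaperonin.

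Opposite deviations of Pdia4 and Xbp1 were seen in both genotypes. In WT the mouse numbered 65, with low Ddx3y, had the highest Pdia4 of the 3 on all 4 days (133.1, 634.9, 472.4 and 317.1 CPM) and the lowest Xbp1 on days 7, 8 and 9 (194.3, 291.6 and 282.7 CPM). The share of all genes highest or lowest in that mouse is not given. On each of the 4 days the KO library with high Ddx3y had the highest Pdia4 and the lowest Xbp1, Herpud1 and Sdf2l1 of the 3. For Pdia4 on day 10 that library read 438.4 CPM and the others 266.6 and 276, and for Xbp1 269.8 beside 339.5 and 310.8. Of all tested genes, 7.2% were highest and 9.67% lowest in that library on all 4 days. In WT none of the 10 had its highest value, or its lowest, in the high-Ddx3y library on every one of the 4 days, beside 2.41% and 2.84% of all genes. The same KO libraries had the lowest summed dendritic markers on 4 of 4 days (5970 TPM beside 13200 and 9310 on day 10), the lowest neutrophil markers on 4 and the lowest dividing-cell markers on 3. In WT the dividing-cell sum was the highest of the 3 in the high-Ddx3y library on all 4 days. Hsp90b1 and Calr were lowest in that WT library on 3 days. Sex, animal and the stage of the culture cannot be told apart here, since each genotype had 1 such library a day.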

How the data were processed

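The authors deposited raw counts per gene, TPM per gene and a table of identifiers and symbols for 24 libraries of poly(A) RNA. Per the submitters' processing notes the build was mm10, and STAR 2.6.1, FastQC 0.11.9 and DESeq2 1.22.2 were named without a role. The counter, its strand setting and the library kit of each sample are not given in the sources used here. The genes, lists, rule for named genes and tests were chosen with earlier results of these data known, so they are no independent support. Named genes are the 10 members, up to 3 called genes per list with the largest change (KO against WT on day 7, day 10 against day 7 in WT, average log2 CPM over 1), the sensors, Atf4, Ddit3, Arpc4 and the 5 most similar genes. Others were named after their values were seen.

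Counts were fitted in edgeR 4.0.16 (R 4.3.3) with filterByExpr, TMM factors (0.877 to 1.13), 1 coefficient per group and 16 residual degrees of freedom, and quasi-likelihood tests gave 14 comparisons with two-sided p-values. A gene is called when its p, adjusted by Benjamini-Hochberg across all 14535 genes, is under 0.05. Each SE is the absolute log2 fold change divided by the root of F. Promoter and motif positions, and distances to the start, are those of the RefSeq promoters. Exons, introns and overlapping genes are those of GENCODE M21 (GRCm38), which holds 55094 of 55487 identifiers with the same version. Genes overlapping a member had at most 0.2% of its counts. Alternatives were DESeq2 1.42.0 (size factors, Wald test), library totals, other filters, fewer libraries, limma-trend 3.58.1 on log2(TPM + 1) and log2(TPM + 0.1), each mouse number left out and the number as a block. Leaving out or modelling high-Ddx3y libraries (over 10 CPM) was added after seeing the data. The pairing of libraries by mouse number comes from the labels: over 10683 autosomal genes, deviations of same-numbered libraries had a mean r of 0.22 to 0.37 in WT and -0.084 to 0.16 in KO. Scripts were tested on simulated data.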

Additional observations from a re-analysis of the deposited data

Results flagged for a closer look

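A few amino acid genes, 4 of 31 to day 8 and 6 of 31 to day 10, differed between KO and WT in their change from day 7. With 1 mouse number left out the counts were 0 to 2 and 0 to 6, and both were 0 without the number 65 or 68. The values to day 8 then ranged from 1.421 to 1.767 for Asns and from 1.288 to 1.768 for Psat1. By the interaction test of edgeR (KO change minus WT change, log2), the difference from day 7 to day 8 was 1.60 for Asns (SE 0.22, adjusted p = 0.0067), 1.55 for Psat1 (SE 0.26, adjusted p = 0.033), 0.65 for Aars (SE 0.1, adjusted p = 0.03) and 0.42 for Nars (SE 0.074, adjusted p = 0.045). From day 7 to day 10 it was 1.501 for Asns (adjusted p = 0.0062) and 1.58 for Psat1 (adjusted p = 0.019). Among the synthetases it was 0.75 for Aars (adjusted p = 0.004), 0.70 for Cars (adjusted p = 0.024), 0.58 for Eprs (adjusted p = 0.022) and 0.43 for Nars (adjusted p = 0.024). Aars, Cars, Eprs and Nars encode aminoacyl-tRNA synthetases and were named after their values were seen. None of the 10 ER transcripts was called in this test, with values from -0.29 to 0.09 to day 8 and from -0.12 to 0.20 to day 10.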

How the results depend on the processing

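In KO against WT and in both tests of the difference in change, no alternative called any of the 10 transcripts. From day 7 to day 8 the counts stayed at 9 to 10 in WT and 8 to 10 in KO. Counts that moved by over 1.5 times were these. Day 9 against day 8 in WT, 0 as reported, gave 2 with DESeq2, 1 with no filter, 2 with only the groups compared, 1 on log2(TPM + 1), 1 on log2(TPM + 0.1), 2 without the KO libraries with high Ddx3y, 1 without all libraries with high Ddx3y and 0 to 1 with 1 mouse number left out. The same step in KO, 0 as reported, gave 1 with DESeq2, 1 with no filter and 2 without either set of libraries with high Ddx3y. Day 10 against day 9 in WT, 5 as reported, gave 1 without all libraries with high Ddx3y and 0 to 6 with 1 number left out. In KO, 0 as reported, it gave 4 with DESeq2, 1 without either set and 0 to 3 with 1 number left out. Day 10 against day 7, 5 as reported in each genotype, gave 8 on library totals and 9 on TPM in each, and in KO 3 to 5 with 1 number left out. On library totals 81.9% of the genes called in WT in that comparison were higher, beside 51.9% with DESeq2 size factors. The cause was not tested.

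Of 2900 log2 values under alternatives, 171 changed sign, of which 4 were called in either fit, and 133 were uncalled in both and moved by no more than 1 SE. The other reversals were as follows. KO over WT without all libraries with high Ddx3y was 0.1 for Sdf2l1 on day 8 and -0.034 for Hspa5 on day 10. On day 10, without the KO libraries and without all libraries with high Ddx3y, it was -0.077 and -0.154 for Calr, -0.079 and -0.175 for Pdia4, and 0.108 and 0.103 for Herpud1. Hsp90b1 on day 10 was 0.069 on both TPM scales. Day 10 against day 7 on library totals, log2(TPM + 1) and log2(TPM + 0.1) was 0.157, 0.203 and 0.203 for Hspa5 in WT and 0.158, 0.241 and 0.242 in KO, and the 4 TPM values were called. Dnajb9 in that comparison was 0.021 on both TPM scales in WT, and 0.053 and 0.054 in KO. Day 10 against day 9 in KO was 0.056 for Dnajb9 without either set of libraries with high Ddx3y. Without all such libraries the difference in change to day 8 was 0.092 for Hsp90b1 and 0.144 for Pdia6, and to day 10 -0.16 for Pdia4.

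With 1 mouse number left out, KO over WT ranged from -0.078 to 0.072 for Pdia6 on day 7, from -0.263 to 0.018 for Dnajb9 on day 8, and on day 10 from -0.077 to 0.122 for Calr, -0.079 to 0.333 for Pdia4 and -0.12 to 0.108 for Herpud1. In KO, day 10 against day 9 ranged from -0.113 to 0.308 for Herpud1 and -0.16 to 0.173 for Xbp1, and day 10 against day 7 from -0.185 to 0.038 for Hspa5 and -0.09 to 0.219 for Calr. The difference in change ranged from -0.129 to 0.063 for Creld2 to day 8, and to day 10 from -0.113 to 0.112 for Hspa5, -0.226 to 0.29 for Pdia4 and -0.332 to 0.064 for Herpud1. The mouse number as a replicate block had a consensus correlation of 0.0046, and with the block as a random or fixed term day 10 against day 7 again gave 5 calls in each genotype. The block moved no count of the 10 by over 1.5 times. KO numbers did not mark 1 animal, so the block does not remove differences between KO mice. With 3 mice a group, p-values measure the spread between these cultures, pooled over the 8 groups. The reported fit took all 24 libraries as independent, although the labels give 6 mice over the 4 days.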
